A study of Mus musculus with 45 samples.

Results

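The effect of mutant tau in mice that already carry amyloid transgenes was measured in the hippocampus of APPswe/PS1dE9 mice with Tau P301L (A+T+, n = 10) and without it (A+Tw, n = 11). These 21 mice were all the A+ animals among the 45 profiled, and were chosen by genotype label only. The 24 mice without the amyloid transgenes were AwT+ (Tau P301L only, n = 12) and AwTw (neither transgene, n = 12) and were used for comparison. All were females of the C57Bl/6J background, fed a standard diet (STD) or a typical Western diet high in fat, sugar and cholesterol (TWD) from 7 months of age and sacrificed at 13 months, and RNA from the hippocampus was sequenced. The A+T+ mice were 4 on STD and 6 on TWD, and the A+Tw mice were 5 on STD and 6 on TWD. All group sizes follow the sample labels. The study's methods give other numbers for each genotype, with fewer AwT+ and AwTw mice than the labels hold. The amyloid transgene was driven by the mouse prion protein promoter and the human Tau P301L transgene by the CaMKII promoter, which is active in forebrain excitatory neurons, and A+T+ animals came from a cross of heterozygous lines.

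Tau is a microtubule-binding protein of axons, and the P301L mutation, known from inherited frontotemporal dementia, makes it prone to aggregate in neurons. The APPswe/PS1dE9 transgenes raise β-amyloid production and lead to plaques, around which microglia take up a disease-associated state that depends on the receptor Trem2. Adding mutant tau to such mice asks whether a second, neuronal pathology changes the hippocampal transcriptome beyond what amyloid alone does.

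Values are variance-stabilized expression on a log2-like scale, so a difference of 1 is about a doubling for a well expressed gene and stands for more than that near the lower end of the scale (1.90 to 18.08 over the table). In whole tissue, more cells of a type and more RNA per cell cannot be told apart. The mice fell into batch 0 and batch 1, with 6 A+T+ and 5 A+Tw mice in the former and 4 and 6 in the latter, so batch and diet were terms of the fit (limma, Benjamini-Hochberg adjustment over all 15897 genes, threshold 0.05). Pearson correlations between A+ mice over all genes ran from 0.889 to 0.989, and leaving out any single mouse kept both calls. The labelled tissue carried its defining markers in every A+ mouse: Prox1 (dentate granule cells) lay between 9.01 and 10.23, and Fibcd1 (CA1 pyramidal cells) between 10.89 and 11.82.

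The transgenes were checked first. Mapt, the mouse gene for tau, had a median of 12.91 in A+T+ (12.64 to 13.20) and 12.88 in A+Tw (12.61 to 13.06), and differed by 0.06 ± 0.07 (SE). The groups overlapped, and because reads were matched to the mouse transcriptome, this value checks the human tau transgene only as far as its sequence is shared with mouse. Tau genotype is therefore taken from the labels. From a separate alignment to human transcripts, the study reports significantly higher human MAPT in AwT+ and A+T+ than in AwTw mice. That alignment was not analysed here. Prnp, the prion protein gene whose promoter drives the amyloid transgene, was at 14.65 to 15.02 over all A+ mice and at 13.28 to 13.98 over all Aw mice, so every A+ mouse carried the mark of its label. Prnp (−0.09 ± 0.06) and App, the amyloid precursor protein gene (0.09 ± 0.07), did not pass the threshold between A+T+ and A+Tw. In the fit of all 45 mice App was higher in A+ than in Aw mice by 0.86 ± 0.07 without tau and by 0.94 ± 0.07 with it. Camk2a, a CaMKII gene, was at a median of 15.79 in A+T+ and 15.86 in A+Tw, a difference of −0.02 ± 0.10. The study names the promoter of the tau transgene only as CaMKII.

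For tau in A+ mice, 2 of 15897 genes passed the threshold (0.0126%), and both were higher in A+T+. They were Arsi (ENSMUSG00000036412), which encodes a sulfatase family enzyme, and AC149090.1 (ENSMUSG00000095041), annotated as a protein-coding gene on an unplaced scaffold of the mouse assembly. At an unadjusted p below 0.05 there were 455 higher genes (2.86%) and 144 lower genes (0.906%). The median difference over all genes was −0.01, with 7048 genes above 0 and 8849 below it. A gene that did not pass may still have changed.

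Arsi separated the genotypes completely. In A+T+ on STD the mice had values of 7.53, 7.09, 7.58 and 7.51, and on TWD the lowest, median and highest values were 6.32, 6.47 and 7.42. In A+Tw the corresponding values were 5.59, 5.72 and 6.11 on STD and 5.38, 5.53 and 5.85 on TWD. All 10 A+T+ mice therefore lay above all 11 A+Tw mice, and Arsi was the only 1 of 15897 genes (0.00629%) whose values did not overlap with A+T+ higher; no gene did so with A+T+ lower. The difference was 1.32 ± 0.14 (SE; 95% interval 1.03 to 1.60, adjusted p = 5.73e-05, limma). It was 1.34 ± 0.20 in batch 0 alone and 1.30 ± 0.20 in batch 1 alone, where with 11 and 10 mice it did not pass (adjusted p = 0.182 and 1, limma).

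Arsi has 2 exons and 1 annotated transcript and lies on chromosome 18 (mm10, 60911780 to 60918561, plus strand). Its end is 7056 bases before the annotated start of Camk2a (60925618 to 60988152, plus strand), a CaMKII gene. The sources used here do not say which CaMKII gene the promoter of the tau transgene came from. They also do not say how much of its upstream region the transgene holds. The part of this position in the Arsi values was not tested. The other 16 measured genes within 500 kb of Arsi differed by −0.28 to 0.18 between A+T+ and A+Tw, 9 of them above 0 and 7 below. The lowest unadjusted p among these neighbours was 0.034, for Pdgfrb, a pericyte receptor gene (0.17 ± 0.08). Cd74, the invariant chain gene on the other side of Arsi, had a difference of 0.00 ± 0.30, and Csf1r, the receptor gene that microglia need to survive, had −0.03 ± 0.10. Of the 2945 distinct stretches of 31 bases in the Arsi transcript, the default match length of kallisto, 10 also occurred in transcripts of other genes (0.34%).

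**Figure D1:**
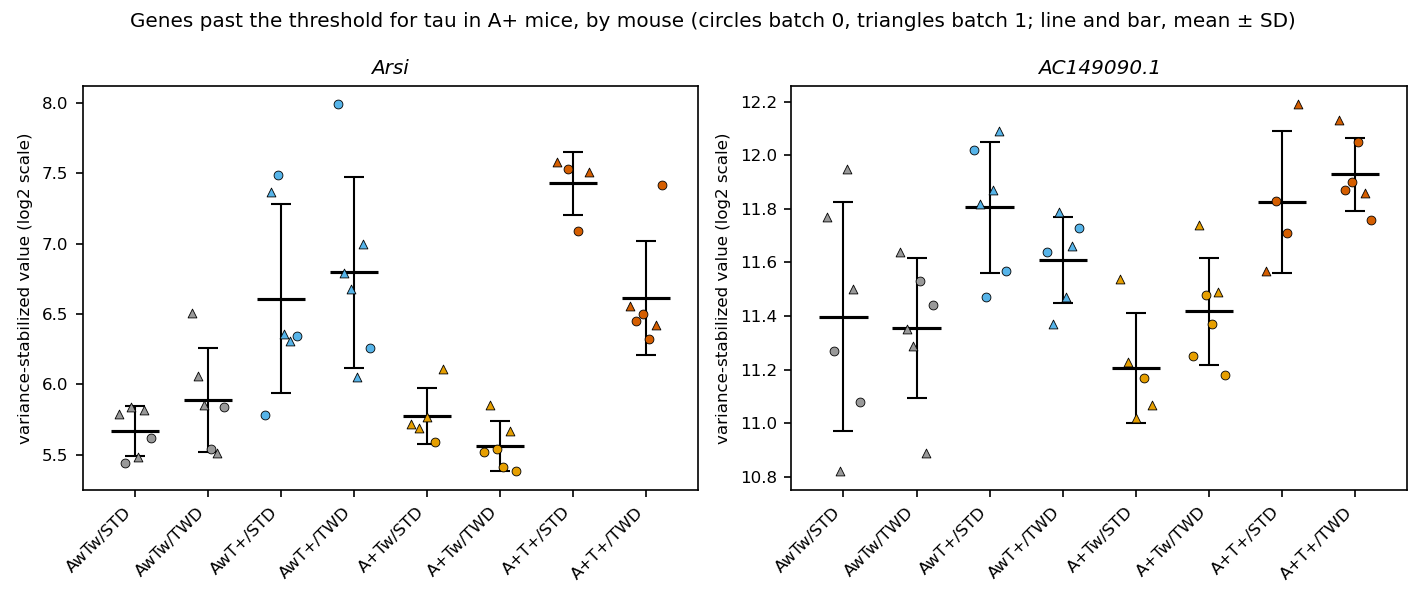
Values of Arsi (left) and AC149090.1 (right) in each of the 45 mice by genotype and diet, on the variance-stabilized log2 scale; each point is a mouse, horizontal lines are group means and bars are 1 SD. All A+T+ mice lie above all A+Tw mice for Arsi, while AwT+ mice spread from 5.78 to 7.99 and reach down into the AwTw range.

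AC149090.1 was higher in A+T+ by 0.58 ± 0.08 (95% interval 0.40 to 0.75, adjusted p = 0.00800, limma). The share of its sequence that occurs in other genes was not computed, so its value may hold reads of another gene. Its values were 11.57, 11.83, 11.71 and 12.19 in A+T+ on STD and had a lowest, median and highest of 11.76, 11.88 and 12.13 on TWD. In A+Tw they were 11.02, 11.17 and 11.54 on STD and 11.18, 11.42 and 11.74 on TWD. Of the 10 A+T+ mice, 8 lay above the highest A+Tw mouse and all lay above the A+Tw median. Within batch 0 the difference was 0.58 ± 0.08 and within batch 1 it was 0.55 ± 0.16, and with these fewer mice neither passed (adjusted p = 0.182 and 1, limma). The call was also lost, with a similar difference, when the mice with a Ttr value below 12 were left out (0.55 ± 0.10, adjusted p = 0.318) and with meningeal marker level as a covariate (0.53 ± 0.11, adjusted p = 0.611), both limma fits added after the data were seen.

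The tau effect was then taken within each diet. On STD, 1 gene passed (0.00629%), Arsi, at 1.69 ± 0.19 (adjusted p = 0.00028, limma). On TWD, 1 gene passed (0.00629%), again Arsi, at 1.05 ± 0.16 (adjusted p = 0.0294, limma). The TWD call rested on a narrow margin: leaving out single mice ended it in 12 of 21 cases, with an adjusted p of 0.0520 to 0.135. These were A+T+/TWD replicates 1, 2 and 3, A+Tw/TWD replicates 1, 3, 4, 5 and 6, A+T+/STD replicates 1 and 4, and A+Tw/STD replicates 3 and 4. The call was also lost in 7 of 12 other alternatives, namely the fit of all 45 mice, either batch alone, the mouse label prefix or choroid plexus covariate, quantile normalization and a filter on low values that removes Arsi. An unadjusted p below 0.05 was reached by 805 genes on STD (5.06%) and 186 on TWD (1.17%). Of all 15897 genes, 7504 were above 0 on STD (47.2%) and 7779 on TWD (48.9%).

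Whether diet changed the tau effect was tested as an interaction. No gene passed (0%), and 304 had an unadjusted p below 0.05 (1.91%, limma). Arsi had an interaction of −0.64 ± 0.25 (TWD minus STD; 95% interval −1.16 to −0.13, adjusted p = 1.00, limma). The gene with the smallest p was Slc26a10, a member of the Slc26 anion transporter family that was named after its values were seen. In A+T+ on STD its values were 6.47, 6.41, 6.39 and 6.43, and in A+Tw on STD they were 6.78, 6.98, 7.60, 7.46 and 7.15. On TWD the order was turned, with a lowest, median and highest of 7.12, 7.30 and 7.57 in A+T+ and 6.42, 6.73 and 7.35 in A+Tw, and there the groups overlapped. The interaction was 1.31 ± 0.23 (95% interval 0.82 to 1.79) and did not pass (adjusted p = 0.244, limma). Of the 4025 distinct stretches of 31 bases in Slc26a10 transcripts, 17.0% are shared with B4galnt1, a ganglioside synthesis gene, so its value may hold reads of that gene. B4galnt1 itself differed by −0.03 ± 0.16 on STD and −0.10 ± 0.14 on TWD, an interaction of −0.07 ± 0.21.

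In mice without amyloid transgenes, tau gave no gene past the threshold (0%) and 329 at an unadjusted p below 0.05 (2.07%, 24 mice, limma). Arsi was at 5.78 to 7.99 (median 6.52) in AwT+ and at 5.44 to 6.51 (median 5.80) in AwTw, with overlap. That is a difference of 0.93 ± 0.20 (unadjusted p = 9.81e-05, adjusted p = 1.00), and in a fit of all 45 mice Arsi was the only gene called in the Aw mice (adjusted p = 0.0402, limma). AC149090.1 had 0.34 ± 0.11 in the Aw mice (unadjusted p = 0.00676, adjusted p = 1.00, limma). The test of the difference between backgrounds, tau by APP/PS1, called no gene (0%) and had 232 at an unadjusted p below 0.05 (1.46%, limma). For Arsi that difference was 0.43 ± 0.25 (95% interval −0.08 to 0.94), and for AC149090.1 it was 0.24 ± 0.15 (−0.06 to 0.54).

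Tau genotype accounted for 4.64% of the variance over all genes in the 21 A+ mice, after diet and batch. In an exact permutation of tau labels within diet and batch (18900 arrangements, one-sided) this had p = 0.562, where the smallest possible was 5.29e-05. Within batch 0 the share was 6.85% (exact permutation p = 0.814), and within batch 1 it was 8.02% (exact permutation p = 0.633).

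**Figure D2:**
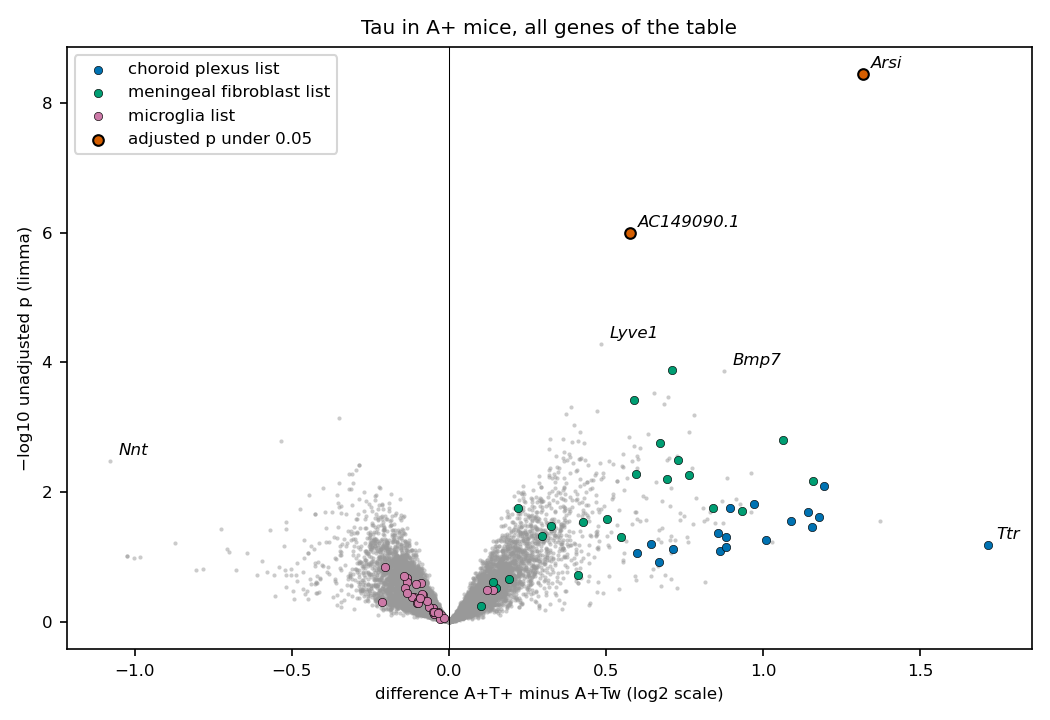
Difference between A+T+ and A+Tw for each of 15897 genes (horizontal axis, log2 scale) against −log10 of the unadjusted limma p (vertical axis), with the choroid plexus, meningeal fibroblast and microglia lists coloured. Arsi and AC149090.1 stand apart at the top, choroid plexus and meningeal genes lie to the right, and microglial genes lie near 0.

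Microglia surround the plaques of A+ mice, and whether tau alters their genes was read from lists of their markers. None of the 30 measured microglia markers, 32 disease-associated microglia genes, 16 homeostatic microglia genes and 10 Trem2 signalling genes passed the threshold for tau. On the microglia list 28 of 30 genes were below 0, with a median of −0.09, against 8849 of 15897 genes below 0 over the whole table, and no member reached an unadjusted p below 0.05. Over the alternative fits the median of the microglia list ran from −0.11 to 0.024. By diet the median of this list was 0.00 on STD, with 15 of 30 genes above 0, and −0.11 on TWD, with 6 of 30 above 0. The medians of the other lists were −0.03 for disease-associated (0.03 on STD and −0.10 on TWD), −0.03 for homeostatic (0.08 and −0.04) and −0.01 for Trem2 signalling genes (0.06 and −0.05). Of the 31 lists, 18 had medians of opposite sign by diet, 16 of them above 0 on STD and below 0 on TWD, and this difference between diets was not tested on the lists. Members of these lists included Csf3r, the granulocyte colony-stimulating factor receptor gene (−0.14 ± 0.11), Timp2, a metalloproteinase inhibitor gene (0.15 ± 0.08), Txnip, a thioredoxin-binding protein gene (0.40 ± 0.22), Sparc, a matrix protein gene (0.14 ± 0.10), and Syk, the kinase that acts below Trem2 (0.10 ± 0.08).

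Single microglial genes overlapped widely between genotypes. Cst7, a cystatin that marks plaque-associated microglia, was at 8.37, 8.97 and 10.05 (lowest, median, highest) in A+T+ and 8.66, 9.21 and 10.27 in A+Tw, a difference of −0.18 ± 0.15 (95% interval −0.49 to 0.13). Trem2 was at 8.77, 9.16 and 10.01 in A+T+ and 8.77, 9.44 and 10.07 in A+Tw, a difference of −0.12 ± 0.14 (−0.41 to 0.18). A second identifier holds identical Trem2 values in every mouse, so Trem2 reads may be divided between the pair and its level is uncertain. Its adaptor Tyrobp had a difference of −0.05 ± 0.13 (−0.33 to 0.23). The directions of Trem2, Tyrobp and Cd68 turned in some alternative fits, all close to 0.

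Aif1, the gene for the microglial protein Iba1, was at 7.12, 7.27 and 7.75 in A+T+ and 6.81, 7.49 and 8.13 in A+Tw, a difference of −0.20 ± 0.13 (95% interval −0.48 to 0.07). Cd68, a lysosomal marker of phagocytic cells, had medians of 9.63 and 9.81 and a difference of −0.07 ± 0.12 (−0.31 to 0.18). Itgax, the CD11c integrin, had medians of 7.60 in A+T+ and 7.76 in A+Tw and a difference of −0.20 ± 0.13 (−0.47 to 0.07). Clec7a, the dectin-1 receptor, differed by −0.16 ± 0.17 (−0.51 to 0.19), and the chemokine Ccl3 by −0.07 ± 0.10 (−0.27 to 0.14). All of these intervals include 0, and each leaves out a change of 1 in either direction.

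The amyloid response itself was present with and without tau. In the fit of all 45 mice, APP/PS1 changed 252 genes without tau (1.59%; 242 higher, 10 lower) and 301 genes with tau (1.89%; 274 higher, 27 lower). These lists shared 195 genes, all in the same direction, which is 77.4% of the first and 64.8% of the second. Cst7 was higher by 4.23 ± 0.13 without tau and by 4.04 ± 0.14 with tau, and Trem2 by 1.83 ± 0.14 and 1.81 ± 0.14. Itgax was higher by 2.50 ± 0.13 without tau and 2.14 ± 0.14 with it, and the test of this difference gave −0.36 ± 0.19 (95% interval −0.75 to 0.03, adjusted p = 1.00, limma). Of 32 disease-associated microglia genes, 23 were called without tau and 24 with tau, with medians of 0.84 and 0.76, and no list gene passed the test of the difference.

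**Figure D3:**
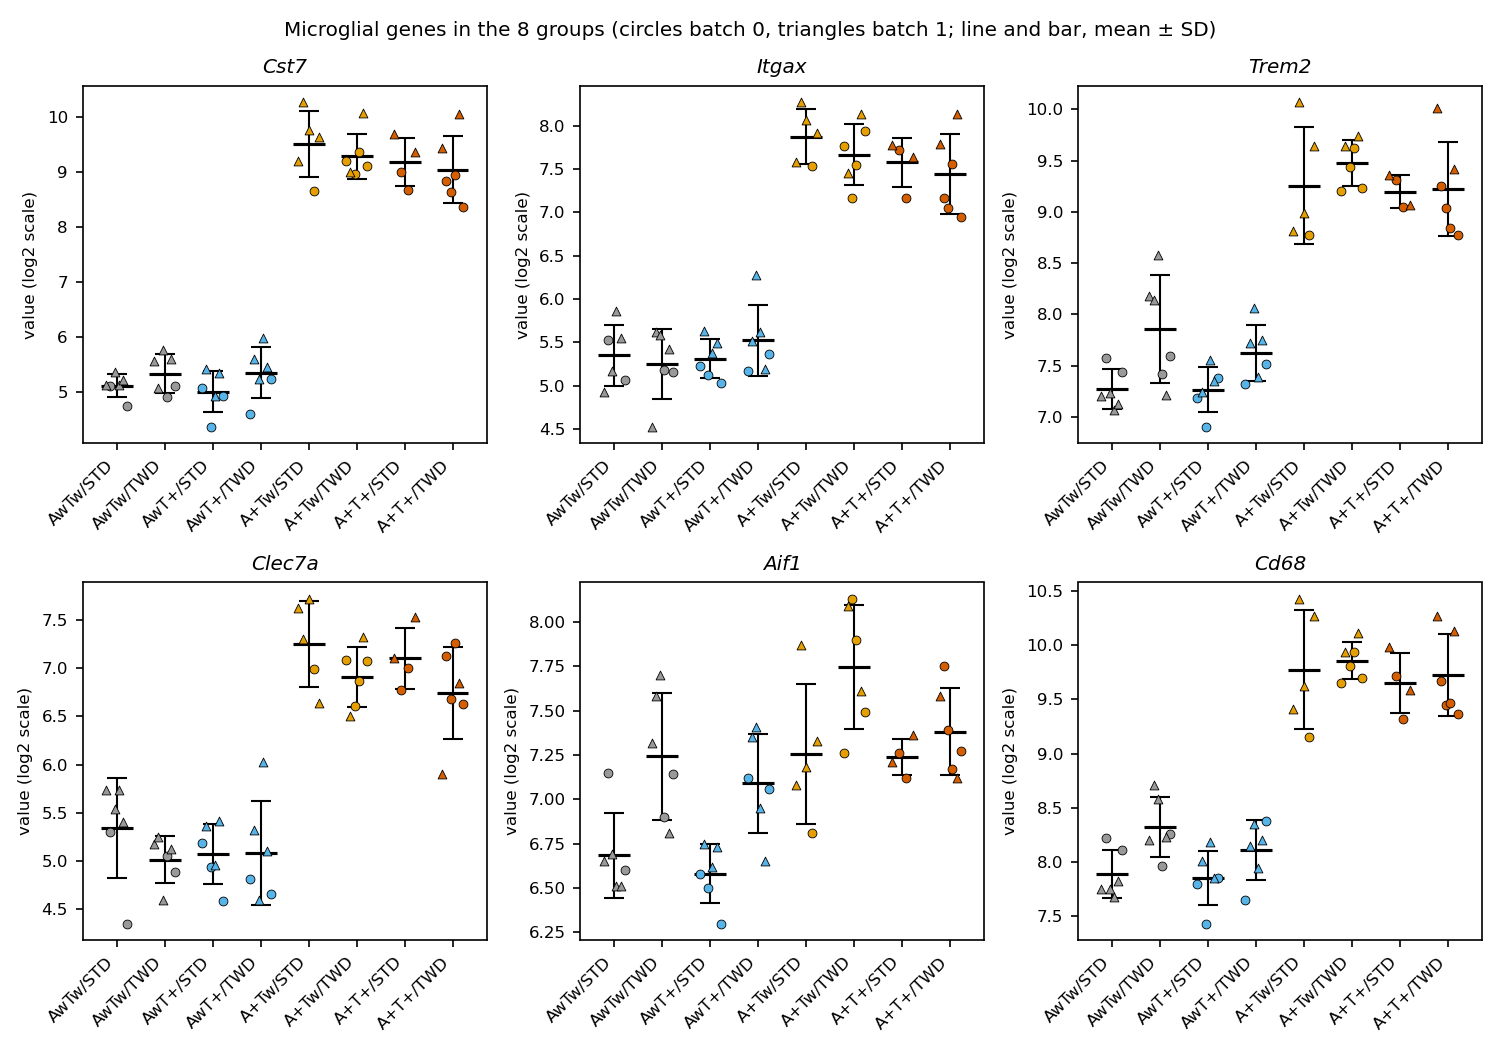
Cst7, Itgax, Trem2, Clec7a, Aif1 and Cd68 in each of the 45 mice by genotype and diet on the variance-stabilized log2 scale; each point is a mouse, lines are group means and bars are 1 SD. Cst7 lies between 8.37 and 10.27 in all A+ mice whether or not they carry tau, and the A+T+ and A+Tw points overlap for all 6 genes.

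Other immune lists held no called gene. Of 15 complement genes 2 were higher at an unadjusted p below 0.05, against 455 of all 15897 genes (2.86%). These 2 were Serping1, the C1 inhibitor gene (0.46 ± 0.15), and C5ar1, the C5a receptor gene (0.23 ± 0.10). Serping1 fell to 0.22 ± 0.12 with choroid plexus marker level as a covariate and to 0.047 ± 0.11 with meningeal marker level, markers that were higher in A+T+ mice. The meningeal markers were listed after the values were seen, and neither covariate can tell tissue carried along from tau. The median of the complement list was 0.02. Among 20 interferon-stimulated genes 16 were below 0 (median −0.05), with Trim30a at −0.26 ± 0.22. By diet, 15 of 20 were above 0 on STD (median 0.10) and 2 of 20 on TWD (median −0.17), against 47.2% and 48.9% of all genes. Of 13 antigen presentation genes 9 were below 0 (median −0.01): B2m, the light chain of class I molecules, was at −0.21 ± 0.14 and its loading factor Tapbp at 0.20 ± 0.09. On STD 10 of these 13 were above 0 (median 0.22), and on TWD 3 of 13 (median −0.18).

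Astrocyte lists sat above the median of all genes without a call. On the reactive astrocyte list 15 of 18 genes were above 0, with a median of 0.13. Of these 18 genes 3 were higher at an unadjusted p below 0.05, against 2.86% of all genes. Over the alternative fits the median of this list ran from 0.032 to 0.19, and without single mice from 0.036 to 0.17. Gfap, the intermediate filament gene of astrocytes, was at 13.94, 14.35 and 14.83 (lowest, median, highest) in A+T+ and 13.84, 14.20 and 14.58 in A+Tw, a difference of 0.20 ± 0.10 (95% interval −0.01 to 0.40) with overlapping groups. The small heat shock protein gene Hspb1 differed by 0.59 ± 0.23 (0.32 ± 0.28 with the meningeal covariate) and Aspg, an asparaginase gene, by 0.26 ± 0.12. On the list of astrocyte markers 12 of 14 genes were above 0 (median 0.10), including Gja1, a gap junction gene (0.31 ± 0.19). Over the alternative fits the median of this list ran from 0.038 to 0.13, and without single mice from 0.050 to 0.15.

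Neuronal lists lay slightly below the median of all genes. Among 12 excitatory neuron genes 11 were below 0, with a median of −0.10, and Chn1, a Rac regulator of neurons, was at −0.22 ± 0.08. The synaptic list had 21 of 32 genes below 0 (median −0.03), with the adhesion gene Nlgn3 at −0.17 ± 0.08 and the AMPA receptor subunit gene Gria1 at −0.11 ± 0.07. Of 20 immediate early genes 13 were below 0 (median −0.07), and Npas4, a transcription factor induced by neuronal activity, was at −0.35 ± 0.13. None of these genes passed the adjusted threshold. Over the alternative fits the list median ran from −0.12 to 0.027 for excitatory neuron genes and from −0.050 to 0.046 for synaptic genes. For immediate early genes it ran from −0.13 to −0.053.

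The hippocampal subfields were read from their own markers. Dentate granule cell genes had a median of −0.06 (7 of 10 below 0), with Lct at −0.32 ± 0.11 and Tdo2 at −0.36 ± 0.17. CA1 genes had a median of −0.03 (4 of 8 below 0) and CA3 and CA2 genes −0.05 (6 of 9), where Rgs14, a CA2 signalling regulator, was at −0.21 ± 0.10. Interneuron genes had a median of −0.04 (8 of 12 below 0), with the neuropeptide genes Sst at −0.20 ± 0.12 and Npy at −0.27 ± 0.18.

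Genes of the proteins tau binds, or that modify it, were read next. The list of tau, other microtubule proteins and tau kinases had 14 of 27 genes above 0, a median of 0.01 and no gene at an unadjusted p below 0.05. Its smallest p values belonged to the tau kinase gene Mark2 (0.13 ± 0.11) and to Ppp2ca (−0.10 ± 0.10), the catalytic subunit of the main tau phosphatase. The APP processing list (11 of 17 above 0, median 0.01) was led by the sheddase gene Adam17 (0.18 ± 0.12). Heat shock genes (5 of 12 above 0, median −0.01) were led by Hspb1 and the co-chaperone Bag3 (0.24 ± 0.09), and unfolded protein response genes had a median of −0.01 (9 of 14 below 0), with the stress factors Atf3 at −0.15 ± 0.15 and Ddit3 at −0.07 ± 0.09.

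Lists for signalling, degradation and metabolism held no called gene. PI3K-Akt genes had a median of 0.02 (19 of 25 above 0; −0.02 on STD and 0.05 on TWD), with the regulatory subunit gene Pik3r1 at 0.13 ± 0.14 and the target transcription factor Foxo3 at 0.15 ± 0.08. On the lysosome and autophagy list 17 of 28 genes were below 0 (median −0.02), with the autophagy enzyme Atg7 at −0.24 ± 0.09. By diet, 17 of 28 were above 0 on STD (median 0.04) and 4 of 28 on TWD (median −0.07). Cholesterol synthesis genes had a median of 0.06 (17 of 20 above 0), with the sterol transporter Stard4 at 0.29 ± 0.13. Circadian clock genes had a median of 0.09 (14 of 18 above 0), with the repressor Nr1d1 at 0.17 ± 0.12. Oligodendrocyte and myelin genes (11 of 15 below 0) had a median of −0.02, and oligodendrocyte precursor genes (5 of 7 above 0) had 0.04. The myelin genes Mal and Opalin were at −0.10 ± 0.12 and −0.09 ± 0.14, and Pdgfra, the receptor that marks precursors, was at 0.19 ± 0.15. Ribosomal protein genes (76 of 81 below 0, median −0.06) and OXPHOS genes (78 of 85 below 0, median −0.07) differed in sign by diet, with medians of 0.07 and 0.03 on STD and −0.15 on TWD for both. The respiratory chain genes Cox6b2 (0.55 ± 0.17) and Cox8b (0.73 ± 0.29) stood on the other side of 0 from most of their list, and fell to 0.18 ± 0.17 and 0.023 ± 0.27 with the meningeal covariate. Rps12l1, an annotated processed pseudogene on the ribosomal list, had −0.98 ± 0.57. Across all 31 lists, 627 genes were measured and 0 passed the adjusted threshold, against 2 of all 15897 genes (0.0126%). At that share an absence of calls says little about these lists.

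**Figure D4:**
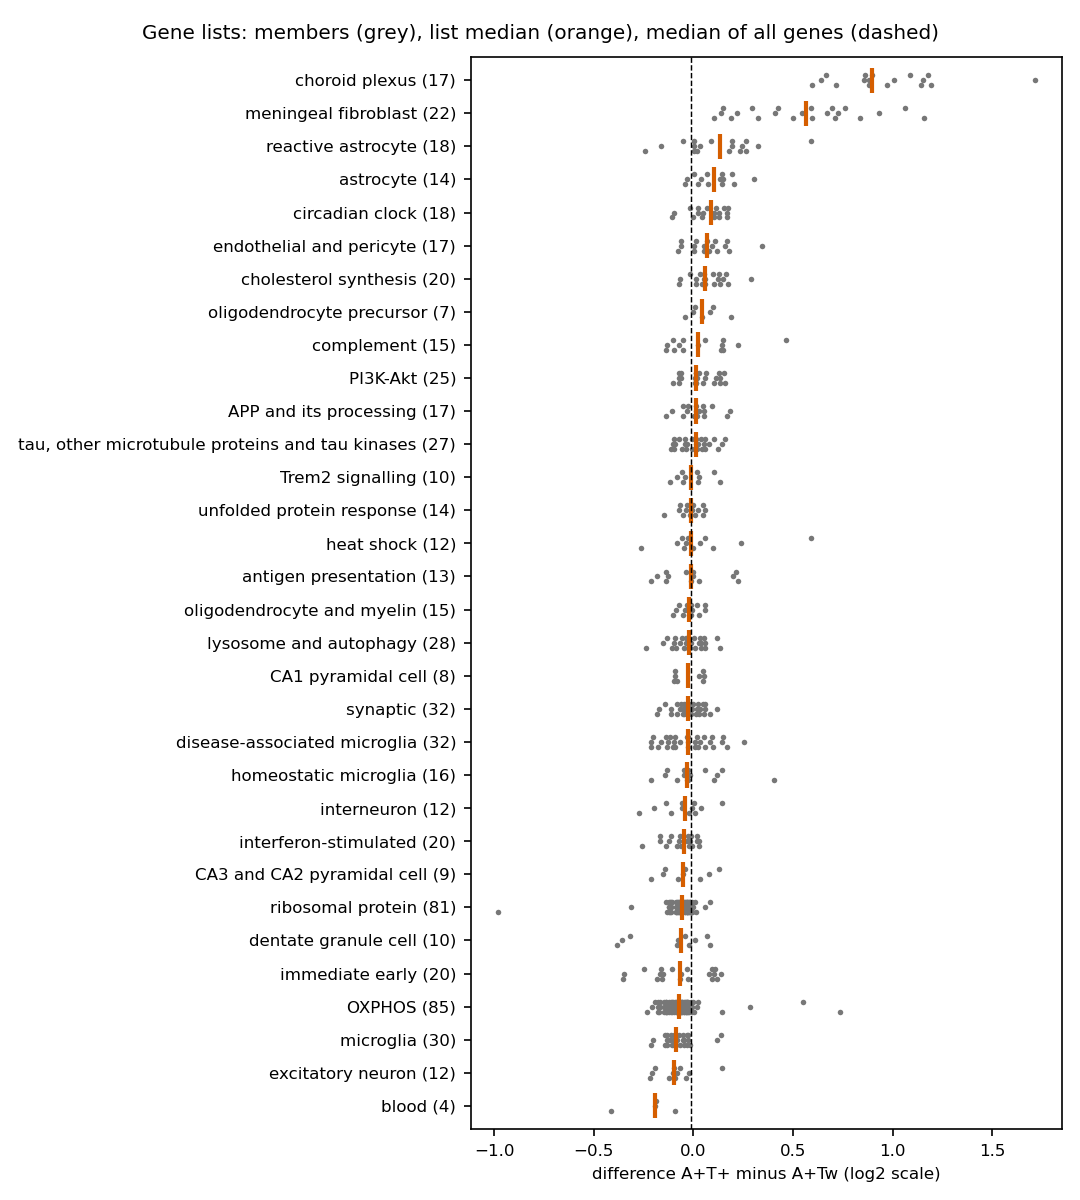
Differences between A+T+ and A+Tw (horizontal axis, log2 scale) for the members of each gene list (grey points; number measured in brackets), with list medians in orange and the median of all genes dashed. The choroid plexus (0.89) and meningeal fibroblast (0.57) lists lie to the right of 0, and the other medians lie between −0.19 and 0.13.

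The list median farthest from 0 belonged to tissue next to the hippocampus. All 17 measured markers of the choroid plexus, the epithelium that makes cerebrospinal fluid, were above 0 in A+T+, with a median of 0.89. Of these, 9 had an unadjusted p below 0.05, against 2.86% of all genes higher at this p, and none passed the adjusted threshold. Ttr, the transthyretin gene that defines this tissue, was at 10.89, 16.34 and 17.20 (lowest, median, highest) in A+T+ and 9.73, 15.21 and 17.59 in A+Tw, a difference of 1.72 ± 0.89 with overlapping groups. The SD between mice of a genotype was 1.82 in A+T+ and 2.59 in A+Tw, more than this difference. The epithelial membrane gene Tmem72 (1.19 ± 0.41) and Otx2, the transcription factor of this epithelium (0.97 ± 0.37), had the smallest p of the list. The value summed over the list ran from 112.6 to 166.0 in A+T+ and from 105.6 to 162.3 in A+Tw. With this list as a covariate, Arsi differed by 1.21 ± 0.15 (adjusted p = 0.00107) and AC149090.1 by 0.60 ± 0.10 (adjusted p = 0.0342, limma).

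The higher genes that followed the called pair by p did not pass the threshold. Lyve1, a hyaluronan receptor of lymphatic vessels and perivascular macrophages, was at 5.32, 5.66 and 5.91 in A+T+ and 4.84, 5.12 and 5.51 in A+Tw, a difference of 0.48 ± 0.10 (adjusted p = 0.280, limma). Col3a1, a fibrillar collagen gene, was at 6.11, 6.78 and 7.31 in A+T+ and 5.17, 6.14 and 6.29 in A+Tw, a difference of 0.71 ± 0.15 (adjusted p = 0.433, limma), and 9 of 10 A+T+ mice lay above the highest A+Tw mouse. Bmp7, a secreted growth factor, had medians of 8.80 and 7.84 and a difference of 0.87 ± 0.19 (adjusted p = 0.433, limma). With choroid plexus marker level as a covariate Bmp7 was at 0.55 ± 0.14, and with meningeal marker level at 0.31 ± 0.12. Under the same covariates Lyve1 was at 0.45 and 0.37, and Col3a1 at 0.61 and 0.48. Neither these nor the next genes passed: the basement membrane genes Nid1 (0.59 ± 0.14) and Col4a5 (0.70 ± 0.16), the matrix gene Abi3bp (0.39 ± 0.09), the focal adhesion gene Tns4 (0.65 ± 0.15) and the protocadherin gene Pcdhgb8 (0.69 ± 0.16).

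A list of 22 meningeal fibroblast genes, written after these values were seen and hence no independent support, was above 0 in all 22, with a median of 0.57. An unadjusted p below 0.05 was reached by 17 of them, against 2.86% of all genes higher at this p. Fmod, the matrix proteoglycan fibromodulin, differed by 1.06 ± 0.29. The summed value of this list ran from 171.2 to 198.6 in A+T+ and from 155.1 to 185.1 in A+Tw. In the Aw mice its median difference for tau was 0.08, where the choroid plexus list had 0.82. Lyve1 had the smallest p of all genes in the tau by APP/PS1 test (0.59 ± 0.16, adjusted p = 1.00, limma). The part of choroid plexus and meningeal tissue in these values was not tested beyond the covariate fits. Of 90 named genes, 26 came nearer 0 by over 1.5 times, or past it, with the choroid plexus covariate and 45 with the meningeal one. Both lists were themselves higher in A+T+, so these fits cannot tell tissue carried along from tau. With the choroid plexus covariate the median of the meningeal list became 0.20, and with a meningeal covariate that of the choroid plexus list became −0.27.

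Vascular genes showed less. Of 17 endothelial and pericyte genes 14 were above 0 (median 0.07). The pericyte-linked Pdgfrb and Vtn (0.34 ± 0.16) had an unadjusted p below 0.05, against 2.86% of all genes higher at this p. The list median was 0.20 on STD and −0.01 on TWD, and Vtn fell to 0.064 with the meningeal covariate. All 4 blood genes were below 0 (median −0.19), with the haemoglobin gene Hbb-bs at −0.41 ± 0.44. On STD 3 of 4 were above 0 (median 0.13) and on TWD none of 4 (median −0.49). Leaving out single mice gave list medians from −0.43 (without A+T+/TWD replicate 1) to 0.045 (without A+Tw/TWD replicate 4).

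**Figure D5:**
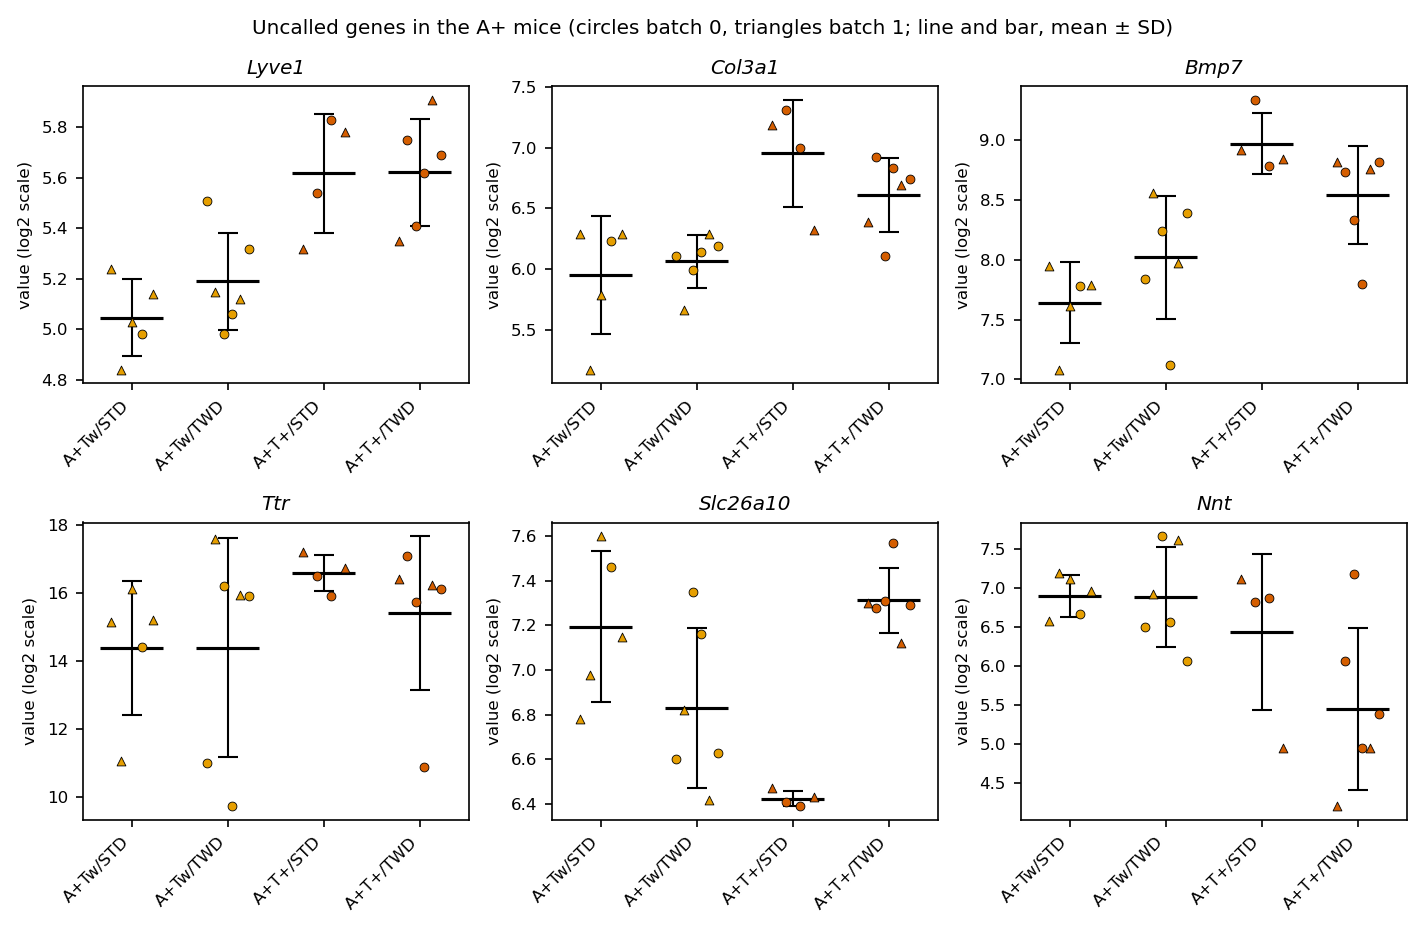
Lyve1, Col3a1, Bmp7, Ttr, Slc26a10 and Nnt in each of the 21 A+ mice by genotype and diet on the variance-stabilized log2 scale; each point is a mouse, lines are group means and bars are 1 SD. Slc26a10 lies at 6.39 to 6.47 in A+T+ on STD, below all A+Tw mice on STD, and 5 of 10 A+T+ mice lie below 5.5 for Nnt against 0 of 11 A+Tw mice.

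No lower gene passed the threshold. The lower genes with the smallest p were Phf11b (−0.35 ± 0.09, adjusted p = 0.821, limma), with all 10 A+T+ mice below the A+Tw median, and the retrotransposon-derived gene Rtl3 (−0.54 ± 0.15). Nnt, the mitochondrial transhydrogenase gene that is known to carry a deletion in C57BL/6J mice, had the lowest estimate of all genes at −1.08 ± 0.33 (adjusted p = 1.00, limma). Its values were 4.20, 5.72 and 7.18 in A+T+ and 6.06, 6.92 and 7.67 in A+Tw, with 5 of 10 A+T+ mice and 0 of 11 A+Tw mice below 5.5. A second identifier also named Nnt, annotated over the same stretch of chromosome 13, had the opposite sign, at 0.37 ± 0.17, so reads may be divided between the pair and the gene's direction is uncertain. The keratin gene Krt10 (−0.29 ± 0.09), the DNA repair helicase Brip1 (−0.30 ± 0.09), Umodl1 (−0.31 ± 0.10), Spag6, a gene of motile cilia (−0.35 ± 0.12), and the non-coding Prox1os (−0.32 ± 0.10), Gm32365 (−0.29 ± 0.09) and Gm34583 (−0.31 ± 0.10) followed. For Prox1os all 10 A+T+ mice lay below the A+Tw median. It overlaps the start of Prox1 on the other strand, and whether the quantification used strand is not given in the sources used here.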

How the data were processed

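Hippocampal poly(A) RNA of 45 mice was sequenced with a stranded kit as single 50-base reads, in 1 pool over 2 lanes. Per the labels and methods, the authors used FastQC 0.11.8 and Trimmomatic 0.38, removed ribosomal and mitochondrial reads with Bowtie2 2.2.3, quantified with kallisto 0.44.0 on the mouse (mm10) transcriptome, summed transcripts to genes, kept genes with a mean count above 10, and applied the variance-stabilizing transformation of DESeq2 1.22.2 and batch removal of limma 3.38.3. The deposited log2-scale values were used as they stand. They hold no counts, so the depth per mouse is unknown and no counting interval could be given. The batch means of every gene were already equal over all 45 mice, but not within each genotype. Batch stayed in each fit because the groups were not balanced over the batches.

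Groups followed the labels. The tau effect was fitted with limma 3.58.1 in R 4.3.3 (empirical Bayes with a mean trend; tau, diet and batch; 21 A+ mice). Effects by diet and their interaction used 4 group means plus batch, the Aw effect used 24 mice, and the tau by APP/PS1 test and APP/PS1 effects used 8 group means plus batch over 45 mice. All p values were adjusted over 15897 genes. Values are given ± SE for differences. Each mouse is 1 sample. Scripts were tested on simulated data with 200 changed genes among 15897 and noise drawn independently for each gene. There the fit of the tau effect found 59% of changes of 0.5 and 94% of changes of 1. The fit of the real data called 2 genes, a setting in which the adjustment is stricter, and real genes need not vary independently. These shares therefore cannot be carried over to it, and changes of these sizes or smaller can be missed. Symbols and positions came from GENCODE M21 (15707 identifiers matched). In 157 pairs of identifiers the values are identical, as for Trem2.

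Genes named were the transgene-linked genes, called genes, the smallest p values up to 10 higher and 10 lower, 2 per list, and 10 glial and signalling genes. Some genes that this rule selects are not reported here. The members, lists and tests were chosen with earlier results of these data known. Slc26a10, Ttr, Fmod, the second Nnt identifier and the genes near Arsi were added after their values were seen.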

Additional observations from a re-analysis of the deposited data

Results flagged for a closer look

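In 144 comparisons of a gene within 1 of the 4 A+ groups (36 genes), 10 had a mouse farther from the others than Dixon's 95% limit; chance alone gives about 1 in 20. For Arsi, A+T+/STD replicate 3 was low at 7.09 (group median 7.52) and A+T+/TWD replicate 6 was high at 7.42 (6.47). Both still lay above every A+Tw mouse. Among uncalled genes, Nnt was low in A+T+/STD replicate 4 at 4.95 (6.84), Col4a5 was low in A+Tw/STD replicate 5 at 5.68 (6.28), Tns4 was high in A+Tw/TWD replicate 6 at 5.86 (5.25), and Spag6 was high in A+Tw/TWD replicate 2 at 7.39 (6.60). Ttr was low in A+T+/TWD replicate 4 at 10.89 (16.19). Camk2a was low in A+Tw/TWD replicate 3 at 15.24 (15.86), Cst7 was high in A+Tw/TWD replicate 5 at 10.07 (9.16), and Ccl3 was low in A+T+/STD replicate 3 at 6.34 (6.87).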

How the results depend on the processing

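The count of 2 called genes in A+ mice was unchanged in the fit of all 45 mice, without batch, with the mouse label prefix, choroid plexus or first residual component as covariate, after quantile normalization, without the mean trend, with identical rows counted once, at a threshold of 0.1, and without any single mouse (2 to 2). It was 0 in batch 0 and 0 in batch 1 alone, where fewer mice were fitted. It was 1 (AC149090.1) with only genes above the 25th percentile, a filter that removes Arsi, and 1 (Arsi) with the meningeal covariate and 1 (Arsi) without the 4 mice with a Ttr value below 12. The STD count of 1 became 0 in either batch alone and with the percentile filter, and stayed 1 without single mice. The TWD count of 1 became 0 in the 45-mouse fit, in either batch alone, with the prefix or choroid plexus covariate, after quantile normalization and with the filter, and was 0 to 1 without single mice; the cause was not tested. The Aw count of 0 became 1 (Arsi) in the 45-mouse fit. Both interactions stayed at 0 under every alternative. The variance share stayed between 4.10% and 8.02%.

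Uncalled genes near 0 changed sign in places. In batch 0 alone these were Mapt (−0.024), Ppp2ca (0.059), Syk (−0.044), Mal (0.049), Gpr17 (−0.12), Bok (0.0055), Per2 (−0.0038), Rpl17 (0.0021) and Ccl3 (0.0080), and in batch 1 alone Camk2a (0.025) and Csf3r (0.035). With the prefix covariate Camk2a was at 0.0093. With the choroid plexus covariate Camk2a (0.052), Fibcd1 (0.013), Tyrobp (0.037) and Cd68 (0.017) turned. Without the mice of low Ttr, Camk2a (0.0032), Trem2 (0.021), Tyrobp (0.10) and Cd68 (0.041) turned. With the meningeal covariate Camk2a (0.086), Csf3r (0.015), Otx2 (−0.016), Fibcd1 (0.071), Bok (0.074), Trem2 (0.027), Tyrobp (0.080), Cd68 (0.071) and Cst7 (0.0070) turned. Without single mice Camk2a ranged from −0.086 to 0.020, Hba-a2 from −0.43 to 0.027 and Tyrobp from −0.10 to 0.0040. Of 1145 values of 90 named genes under the other alternatives, 1110 kept their direction and side of the threshold and 29 changed sign.

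The labels give no pairing of mice, and no paired analysis was made. They also carry no replicate numbers, so the numbers used here only tell the mice of a group apart. The choroid plexus and meningeal covariates overlap with tau in these mice. Depth per mouse is not known from the values, so low genes such as Lyve1 and Arsi cannot be weighed by their reads.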
